A study of Oryza sativa with 10 samples.

Results

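The genes described here are 4 genes of chloroplast greening on rice chromosome 1, chosen by their locus IDs: OsCRD1 (LOC_Os01g17170), OsPsbO (LOC_Os01g31690), ELIP (LOC_Os01g14410) and OsDXR (LOC_Os01g01710). All 4 were found among the 2282 complete gene rows of the table used here, which covers the chromosome up to position 21262392 (MSU7.0 gene models). Their transcript levels were measured by RNA-seq of poly(A) RNA from whole rice seedlings of the indica cultivar YD6. Seedlings germinated in the dark were sampled in darkness (0 h) and after 8 and 24 h of light, and further seedlings received a spray with 100 μM abscisic acid (ABA), a stress hormone, or 100 μM indole-3-acetic acid (IAA), an auxin, 30 min before they were sampled at 24 h of light. All of these seedlings had therefore first grown in the dark, and both hormone groups were lit as the 24 h group was. No library came from seedlings kept in the dark until 8 or 24 h. Hours of light therefore cannot be told apart from seedling age or time of sampling. Each of the 5 conditions had 2 biological replicates, which gives 10 libraries. A spray with the solvent alone is also part of the methods, but the labels do not say if the 24 h seedlings were given it, so the hormone and its solvent cannot be told apart in a comparison with 24 h. The files give no gene names, so the seedling label could not be checked against further marker genes. With 2 replicates in each condition, an exact permutation test of a single gene could not reach 0.05.

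Seedlings that germinate in the dark hold etioplasts, plastids that contain the chlorophyll precursor protochlorophyllide but no working photosynthetic membrane. Light starts the conversion of this precursor to chlorophyll, and pigments, photosystem proteins and thylakoid membranes then have to be made together, because free chlorophyll precursors are harmful in light. OsCRD1 encodes a subunit of the cyclase that closes the isocyclic ring of chlorophyll and yields protochlorophyllide. PsbO is the extrinsic protein of photosystem II that stabilizes the manganese cluster at which water is oxidized. Early light-induced proteins (ELIPs) are relatives of the chlorophyll-binding antenna proteins, known for a rapid appearance when dark-grown plants meet light and thought to protect the thylakoid. DXR, deoxyxylulose phosphate reductoisomerase, catalyses the committed step of the plastid isoprenoid pathway, which supplies carotenoids, tocopherols and the phytol tail of chlorophyll, and also precursors of gibberellins and ABA.

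The 4 genes covered a wide range of transcript levels, given as FPKM, the fragments on a gene per kilobase of its length and relative to all fragments of the library. OsPsbO had the highest FPKM of all 2282 rows in every one of the 10 libraries. OsCRD1 was 2nd in the libraries at 24 h and with either hormone, and 4th in those at 0 and 8 h. OsDXR ranked between 37 and 138, and ELIP between 214 and 1260. The share of OsPsbO in the summed FPKM of the complete rows was 6.47% and 6.53% at 0 h, 10.2% and 9.69% at 24 h, and 10.7% and 11.0% with IAA. In whole seedlings, more cells of a type and more RNA per cell cannot be told apart.

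Changes were tested with limma on log2(FPKM + 1) over the 1092 genes that averaged 1 FPKM or more, all 4 genes included. A gene passed the test at a Benjamini-Hochberg adjusted p under 0.01, and it was called where it also changed by 2-fold or more on this scale. The median of all tested genes was not constant between conditions. It changed by -0.18 on the log2 scale between 8 and 0 h, by -0.18 between 24 and 8 h, and by -0.38 between 24 and 0 h. It changed by -0.10 with ABA and by 0.13 with IAA, each against 24 h, and by 0.21 with IAA against ABA. Relative to this median, the change between 24 and 0 h was 1.44 for OsCRD1, 0.78 for OsPsbO, 3.41 for ELIP and 1.41 for OsDXR, and that between IAA and 24 h was -0.47, 0.21, 1.29 and -0.28 for the same genes in this order. The libraries were therefore also rescaled by the median of their gene-wise ratios, which puts the typical gene at no change. Values from this second scaling are called rescaled and are given where they altered whether a gene passed or was called. The replicates at 24 h lay farther apart than those of any other condition, at a Euclidean distance of 7.82 over the tested genes against 4.86 for the closest replicates, and the smallest distance between conditions was 12.1.

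During greening, all 4 genes were higher at 24 h of light than in the dark, and all 4 passed the test, where 14.9% of the 1092 tested genes passed in that direction at any fold. ELIP, OsCRD1 and OsDXR, 3 of the 4, were also called higher at 2-fold or more, against 6.96% of all tested genes. The 4 genes were chosen with earlier results of these data known, so the shares of all genes give only a scale. No enrichment was tested. At 8 h against 0 h, 2 of the 4 genes passed, both of them higher (14.6% of all genes at any fold), and 1 of them, ELIP, was called (4.21% of all genes). At 24 h against 8 h, 3 of the 4 passed as higher (12.2% of all genes at any fold) and 0 were called (3.48% of all genes), while all 4 had an unadjusted limma p under 0.05. None of the 4 passed in the lower direction in these 3 comparisons. Of all tested genes, 32.4% passed as lower at 8 h against 0 h, 32.5% at 24 h against 8 h and 52.9% at 24 h against 0 h, and 3.85%, 3.57% and 8.52% were called lower at 2-fold or more. This split of calls depended on the scaling. At 24 h against 0 h, 76 genes were called higher and 93 lower with the deposited values, and 104 higher and 32 lower when rescaled. The rescaled calls were 69 higher and 26 lower at 8 h against 0 h, against 46 and 42 as deposited, and 54 and 23 at 24 h against 8 h, against 38 and 39.

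**Figure D1:**
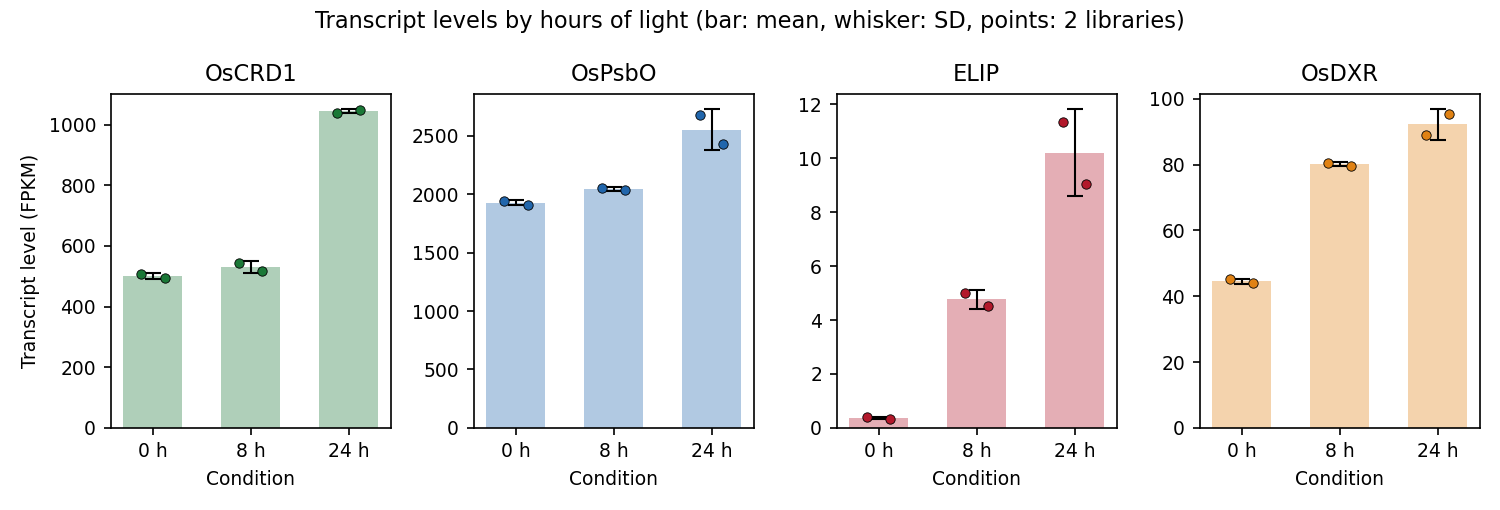
Transcript level in FPKM (vertical axis, linear from 0, one scale for each gene) at 0, 8 and 24 h of light (horizontal axis) for OsCRD1, OsPsbO, ELIP and OsDXR. Bars are means, whiskers the SD and points the 2 libraries. OsCRD1 stayed near 500.7 to 530.0 FPKM until 8 h and reached 1044 FPKM at 24 h, whereas OsDXR was already at 80.2 FPKM at 8 h, against 44.6 FPKM at 0 h.

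OsCRD1, the chlorophyll cyclase gene, rose mainly between 8 and 24 h of light. Its level was 508 and 494 FPKM in the replicates at 0 h, 544 and 516 FPKM at 8 h, and 1039 and 1048 FPKM at 24 h. Both libraries at 24 h lay far above the other light stages, and the 8 h libraries lay only just above those at 0 h. Between 8 and 0 h the log2 change was 0.08 (95% interval -0.04 to 0.20, adjusted p = 0.209 from limma). The rescaled change was 0.28 and passed (adjusted p = 2.15e-04 from limma). Between 24 and 8 h the log2 change was 0.98 (SE 0.054, adjusted p = 1.63e-08 from limma), just under a 2-fold change. The rescaled change was 1.19, and without 8 h replicate 1 the deposited values gave 1.02, both above 2-fold. Between 24 and 0 h the log2 change was 1.06 (SE 0.054, adjusted p = 4.60e-09 from limma), which was larger than that of all but 63 of the tested genes.

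OsPsbO, the gene of the extrinsic photosystem II protein, was at high levels already in the dark and its mean FPKM at 24 h was 1.32 times that at 0 h. Its level was 1946 and 1911 FPKM at 0 h, 2058 and 2036 FPKM at 8 h, and 2675 and 2427 FPKM at 24 h. The replicates did not overlap between any of these stages, and those at 24 h differed most from each other. Between 8 and 0 h the log2 change was 0.09 (95% interval -0.05 to 0.23, adjusted p = 0.264 from limma), and the rescaled change of 0.29 passed (adjusted p = 8.85e-04 from limma). The later step, 24 h against 8 h, gave 0.32 (SE 0.064, adjusted p = 0.0012 from limma), and the whole change from 0 h came to 0.40 (SE 0.064, adjusted p = 1.07e-04 from limma). These 2 results depended on how the spread was estimated, since their adjusted p from limma, in the same order, was 0.669 and 0.421 when genes of low level were kept in the fit, and 0.0209 and 0.0291 when only the 4 libraries compared were fitted. The change between 24 and 8 h also missed 0.01 without 8 h replicate 1 (adjusted p = 0.0116 from limma) and without 8 h replicate 2 (adjusted p = 0.0142 from limma).

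ELIP had the largest change of the 4 genes in light. Its level was 0.403 and 0.330 FPKM in the dark, 5.02 and 4.52 FPKM at 8 h, and 11.3 and 9.06 FPKM at 24 h. The libraries of the 3 stages were fully apart, and in the dark the gene ranked 1240 and 1260 from the highest among the 2282 complete rows. The mean FPKM at 8 h was 13.0 times that at 0 h, and at 24 h it was 27.8 times that at 0 h. As these ratios rest on values below 1 FPKM in the dark, the changes on the log2(FPKM + 1) scale were smaller. They were 2.08 between 8 and 0 h (SE 0.104, adjusted p = 5.92e-09 from limma) and 3.03 between 24 and 0 h (SE 0.104, adjusted p = 1.13e-10 from limma). With a pseudocount of 0.1 the change between 24 and 0 h was 4.46, and that between 8 and 0 h was 3.38. Only 4 of the 1092 tested genes had a larger log2 change between 24 and 0 h, and 8 had a larger one between 8 and 0 h. Between 24 and 8 h the log2 change was 0.95 (SE 0.104, adjusted p = 8.37e-06 from limma), just under 2-fold, and it was at 2-fold or more with a pseudocount of 0.1 (1.07), when rescaled (1.13), without 24 h replicate 2 (1.10) and without 8 h replicate 1 (1.01).

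OsDXR, the plastid isoprenoid gene, rose mainly in the first 8 h of light. Its level was 45.1 and 44.1 FPKM at 0 h, 80.6 and 79.7 FPKM at 8 h, and 89.0 and 95.4 FPKM at 24 h. The replicates of each stage lay apart from those of the others. Between 8 and 0 h the log2 change was 0.83 (SE 0.058, adjusted p = 1.29e-07 from limma), and the rescaled change of 1.03 was called. Between 24 and 8 h it was 0.20 (95% interval 0.07 to 0.33, adjusted p = 0.011 from limma) and missed the limit of 0.01. This later change passed when rescaled (0.41, adjusted p = 6.89e-05 from limma) and without 24 h replicate 1 (0.25, adjusted p = 0.0027 from limma). The log2 change between 24 and 0 h was 1.03 (SE 0.058, adjusted p = 1.02e-08 from limma), and without 24 h replicate 2 it was 0.98, just under 2-fold.

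The 4 genes differed in the share of their change that was reached by 8 h. Of the difference in mean FPKM between 24 and 0 h, OsDXR had reached 74.7% at 8 h, ELIP 44.8%, OsPsbO 19.0% and OsCRD1 5.38%. Over all choices of single libraries the share ran from 68.7% to 81.4% for OsDXR, from 37.6% to 53.7% for ELIP, from 12.3% to 28.4% for OsPsbO and from 1.51% to 9.22% for OsCRD1, so these ranges did not overlap between the genes. Rescaled, a setting added after the data were seen, the shares were 61.1% for OsDXR, 38.8% for ELIP, 29.1% for OsPsbO and 12.3% for OsCRD1. Their order was the same, but the ranges over single libraries of ELIP (33.2% to 45.7%) and OsPsbO (25.2% to 34.0%) then overlapped. The change after 8 h was tested against the change before 8 h in the same limma fit, as the later minus the earlier log2 change. For OsCRD1 this difference was 0.90 (SE 0.094, adjusted p = 7.66e-06 from limma), so that its later change was the larger. It was -0.63 for OsDXR (SE 0.10, adjusted p = 2.79e-04 from limma) and -1.12 for ELIP (SE 0.180, adjusted p = 2.89e-04 from limma), so that their earlier changes were the larger on the log2(FPKM + 1) scale. In FPKM the later difference of ELIP was the larger, as its share of 44.8% at 8 h shows, since log2 changes are relative to the level at the start. OsPsbO had a difference of 0.23 (95% interval -0.01 to 0.47, adjusted p = 0.108 from limma), and without 24 h replicate 2 it passed with 0.30 (adjusted p = 0.00193 from limma). Of all tested genes, 14.6% passed with a positive difference and 16.8% with a negative one. The difference keeps its sign, so for genes that fell it does not tell which step was the larger. The 8 h libraries enter both steps with opposite sign, and the later step is the longer one.

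**Figure D2:**
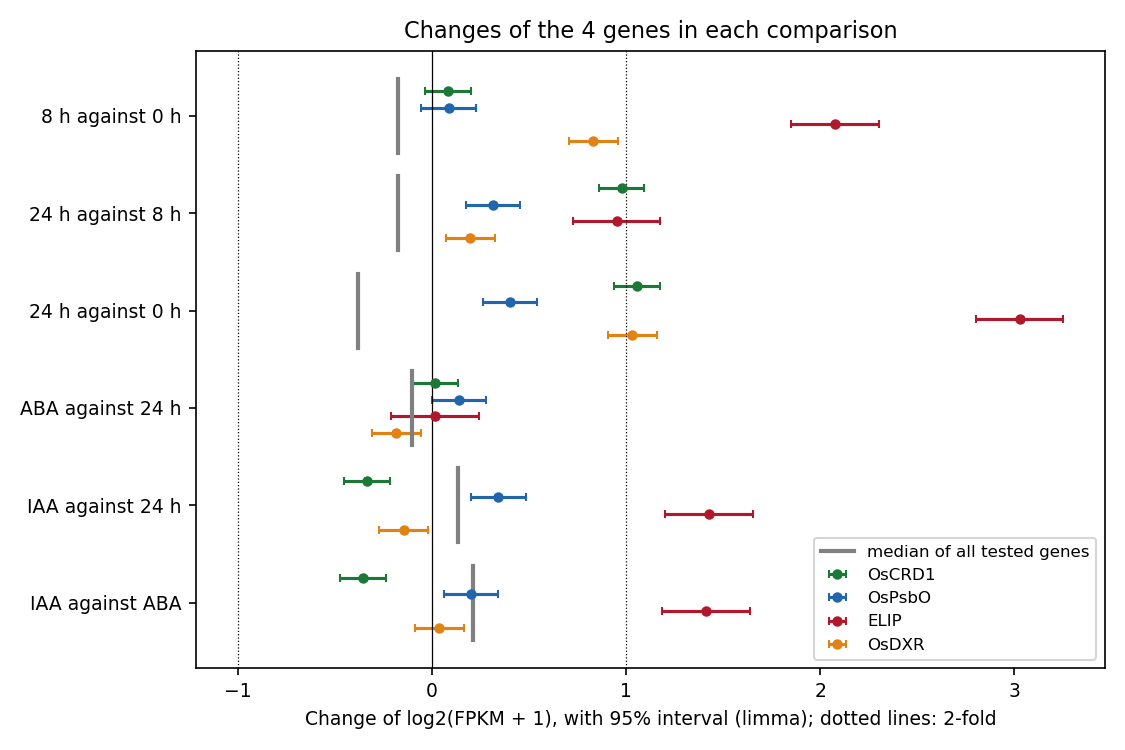
Change of log2(FPKM + 1) with its 95% interval from limma (horizontal axis) for the 4 genes in each of 6 comparisons (rows), the first named condition minus the second. Grey bars mark the median of all 1092 tested genes, dotted lines a 2-fold change. ELIP stands beyond 2-fold at 8 h against 0 h (2.08), 24 h against 0 h (3.03) and in both IAA comparisons (1.43 and 1.41), and all 4 intervals lie within 0.31 of 0 for ABA against 24 h.

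With IAA, the 4 genes went in different directions from their 24 h levels. ELIP and OsPsbO were higher and passed (28.3% of all tested genes passed as higher at any fold), OsCRD1 was lower and passed (7.60% as lower), and OsDXR did not pass. ELIP was the one gene called at 2-fold or more, against 4.67% of all genes called higher and 0.0916% called lower. Those shares are 51 and 1 genes, and rescaling gave 36 and 6. Both hormone groups are set against the same 24 h libraries, so the comparisons with 24 h are not independent of each other.

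ELIP had 29.8 and 28.2 FPKM in the IAA libraries, against 11.3 and 9.06 FPKM at 24 h. Both IAA libraries lay above the other 8 libraries, and the mean was 2.84 times that at 24 h. The log2 change was 1.43 (SE 0.104, adjusted p = 7.78e-07 from limma), with 16 of the tested genes above it, and the rescaled change was 1.27. OsPsbO had 3209 and 3255 FPKM with IAA, against 2675 and 2427 FPKM at 24 h, and was again highest in both IAA libraries. Its log2 change was 0.34 (SE 0.064, adjusted p = 9.03e-04 from limma). It missed 0.01 when rescaled (0.17, adjusted p = 0.0239 from limma), with genes of low level kept in the fit (adjusted p = 0.584 from limma) and without IAA replicate 2 (0.33, adjusted p = 0.0116 from limma).

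OsCRD1 had 830 and 823 FPKM with IAA, against 1039 and 1048 FPKM at 24 h. Its IAA libraries lay between those of 8 and 24 h of light. The log2 change was -0.34 (SE 0.054, adjusted p = 2.90e-04 from limma), and only 89 of the 1092 tested genes had a lower value. The rescaled change was -0.51 (adjusted p = 3.50e-06 from limma), and with genes of low level kept in the fit the adjusted p from limma was 0.0228. OsDXR had 82.7 and 83.9 FPKM with IAA, against 89.0 and 95.4 FPKM at 24 h. Its log2 change of -0.14 (95% interval -0.27 to -0.02, adjusted p = 0.0567 from limma) did not pass, although the rescaled change did (-0.32, adjusted p = 5.40e-04 from limma).

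With ABA, none of the 4 genes passed the test against 24 h in limma (0 genes, with 2 at an unadjusted p under 0.05), where 7.51% of all tested genes passed as higher and 12.2% as lower. At 2-fold or more, 1.65% of all genes were called higher and 0.366% lower. OsCRD1 had 1044 and 1070 FPKM with ABA, against 1039 and 1048 FPKM at 24 h, with a log2 change of 0.02 (95% interval -0.10 to 0.14). ELIP had 10.1 and 10.4 FPKM with ABA, which lay between the 11.3 and 9.06 FPKM at 24 h, with a log2 change of 0.02 (95% interval -0.21 to 0.24). For both genes the libraries of the 2 conditions overlapped, and their intervals leave room for changes up to these bounds. OsPsbO had 2815 and 2805 FPKM with ABA, above both libraries at 24 h, with a log2 change of 0.14 (95% interval 0.00 to 0.28, adjusted p = 0.102 from limma). This passed when rescaled (0.26, adjusted p = 0.00417 from limma) and without 24 h replicate 1 (0.21, adjusted p = 0.00192 from limma). OsDXR had 77.9 and 84.4 FPKM with ABA, below both libraries at 24 h, with a log2 change of -0.18 (95% interval -0.31 to -0.06, adjusted p = 0.0271 from limma). It passed without 24 h replicate 1 (-0.23, adjusted p = 0.00784 from limma), and its rescaled change was -0.07 (adjusted p = 0.404 from limma).

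**Figure D3:**
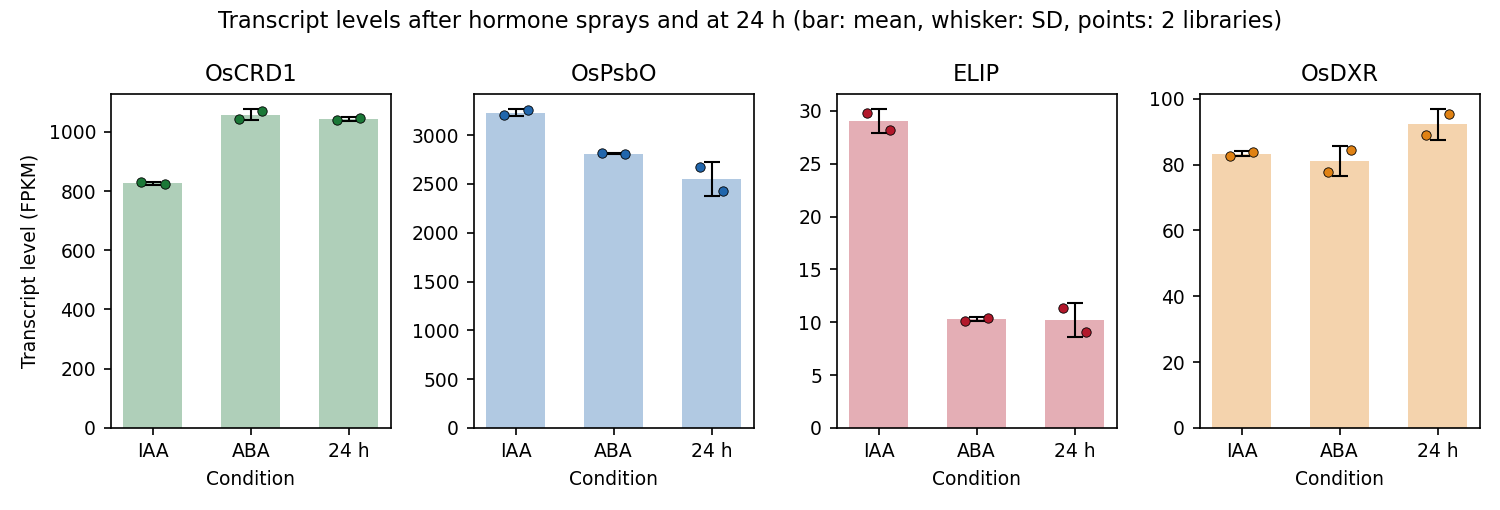
Transcript level in FPKM (vertical axis, linear from 0, one scale for each gene) with IAA, with ABA and at 24 h of light without a hormone (horizontal axis). Bars are means, whiskers the SD and points the 2 libraries. With IAA, ELIP reached a mean of 29.0 FPKM against 10.2 FPKM at 24 h, whereas OsCRD1 had 827 FPKM against 1044 FPKM.

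Set directly against ABA, which was sprayed in the same solvent according to the methods, IAA gave a higher ELIP level and a lower OsCRD1 level. The log2 change was 1.41 for ELIP (SE 0.104, adjusted p = 6.39e-07 from limma), 13th of the tested genes from the top, and -0.35 for OsCRD1 (SE 0.054, adjusted p = 1.65e-04 from limma). In this comparison 36.2% of all tested genes passed as higher and 6.04% as lower, and 4.85% were called higher, as ELIP was, and 0.916% lower. These are 53 and 10 genes as deposited, and 27 and 17 when rescaled. For OsCRD1 the adjusted p from limma was 0.015 with genes of low level kept in the fit. OsPsbO differed by 0.20 (95% interval 0.06 to 0.34, adjusted p = 0.0182 from limma) and OsDXR by 0.04 (95% interval -0.09 to 0.17, adjusted p = 0.583 from limma). Both values changed sign when rescaled, where OsPsbO was at -0.09 (adjusted p = 0.183 from limma) and OsDXR at -0.25 (adjusted p = 0.00284 from limma). OsPsbO passed with only the libraries of IAA and ABA (adjusted p = 2.45e-04 from limma) and with a mean of at least 5 FPKM (adjusted p = 0.0042 from limma).

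Over the 5 conditions, ELIP and OsPsbO shared an order of mean levels, and OsCRD1 and OsDXR each had another. For ELIP it ran from 0 h (0.367 ± 0.052 FPKM, SD, n = 2) through 8 h (4.77 ± 0.353 FPKM), 24 h (10.2 ± 1.61 FPKM) and ABA (10.3 ± 0.185 FPKM) to IAA (29.0 ± 1.13 FPKM), and only the libraries of 24 h and ABA overlapped. OsPsbO had the same order, from 1929 ± 24.5 FPKM at 0 h through 2047 ± 15.5 FPKM at 8 h, 2551 ± 175 FPKM at 24 h and 2810 ± 7.11 FPKM with ABA to 3232 ± 32.1 FPKM with IAA (SD, n = 2), with no overlap between neighbours. OsCRD1 ran from 0 h (501 ± 9.71 FPKM) through 8 h (530.0 ± 20.1 FPKM), IAA (827 ± 5.09 FPKM) and 24 h (1044 ± 6.05 FPKM) to ABA (1057 ± 18.5 FPKM), where the libraries of 24 h and ABA overlapped. For OsDXR the order was 0 h (44.6 ± 0.745 FPKM), 8 h (80.2 ± 0.678 FPKM), ABA (81.1 ± 4.60 FPKM), IAA (83.3 ± 0.844 FPKM) and 24 h (92.2 ± 4.57 FPKM). As deposited, the ABA libraries of OsDXR overlapped with those of 8 h and of IAA, so ABA was not separated from either. The libraries of 8 h and IAA did not overlap each other. Rescaled, OsDXR was lower with IAA than with ABA (log2 change -0.25, adjusted p = 0.00284 from limma). For OsPsbO this rescaled change was -0.09 (adjusted p = 0.183 from limma). The place of IAA and ABA in the order of these 2 genes therefore depended on the scaling.

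A ratio between 2 genes within a library does not depend on the scaling between libraries, and it therefore shows how the 4 transcripts moved against each other. The ratio of OsCRD1 to OsPsbO was 0.260 ± 0.0017 (SD, n = 2) at 0 h and 0.259 ± 0.0079 at 8 h, and it was 0.410 ± 0.031 at 24 h. With IAA it was 0.256 ± 0.0041, within its SD of the ratios in the dark and at 8 h, and with ABA it was 0.376 ± 0.0075, below both libraries at 24 h. OsCRD1 per OsDXR was 11.2 ± 0.030 at 0 h, 6.61 ± 0.195 at 8 h and 11.3 ± 0.496 at 24 h, so that this ratio was lowest at 8 h and at 24 h differed from that at 0 h by less than the SD of the 24 h replicates. It was 9.92 ± 0.162 with IAA and 13.0 ± 0.511 with ABA.

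Ratios to ELIP at 0 h rest on its low levels of 0.403 and 0.330 FPKM. The ratio of OsCRD1 to ELIP in FPKM was 1377 ± 168 at 0 h, 111 ± 4.02 at 8 h and 104 ± 17 at 24 h. The ratio was 28.5 ± 0.931 with IAA and 103 ± 0.0495 with ABA. The large step in this ratio was thus between 0 and 8 h, and from 8 to 24 h it moved by less than the SD at 24 h, as OsCRD1 and ELIP had FPKM ratios of 1.97 and 2.14 between these stages. OsPsbO per ELIP was 5307 ± 683 at 0 h, 430.4 ± 28.6 at 8 h and 252 ± 22.7 at 24 h, and 112 ± 5.43 with IAA. OsPsbO per OsDXR was 43.3 ± 0.173 at 0 h, 25.5 ± 0.0231 at 8 h and 27.7 ± 3.28 at 24 h. With IAA it was 38.8 ± 0.0081 and with ABA 34.7 ± 2.05. No test was run on these ratios.

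**Figure D4:**
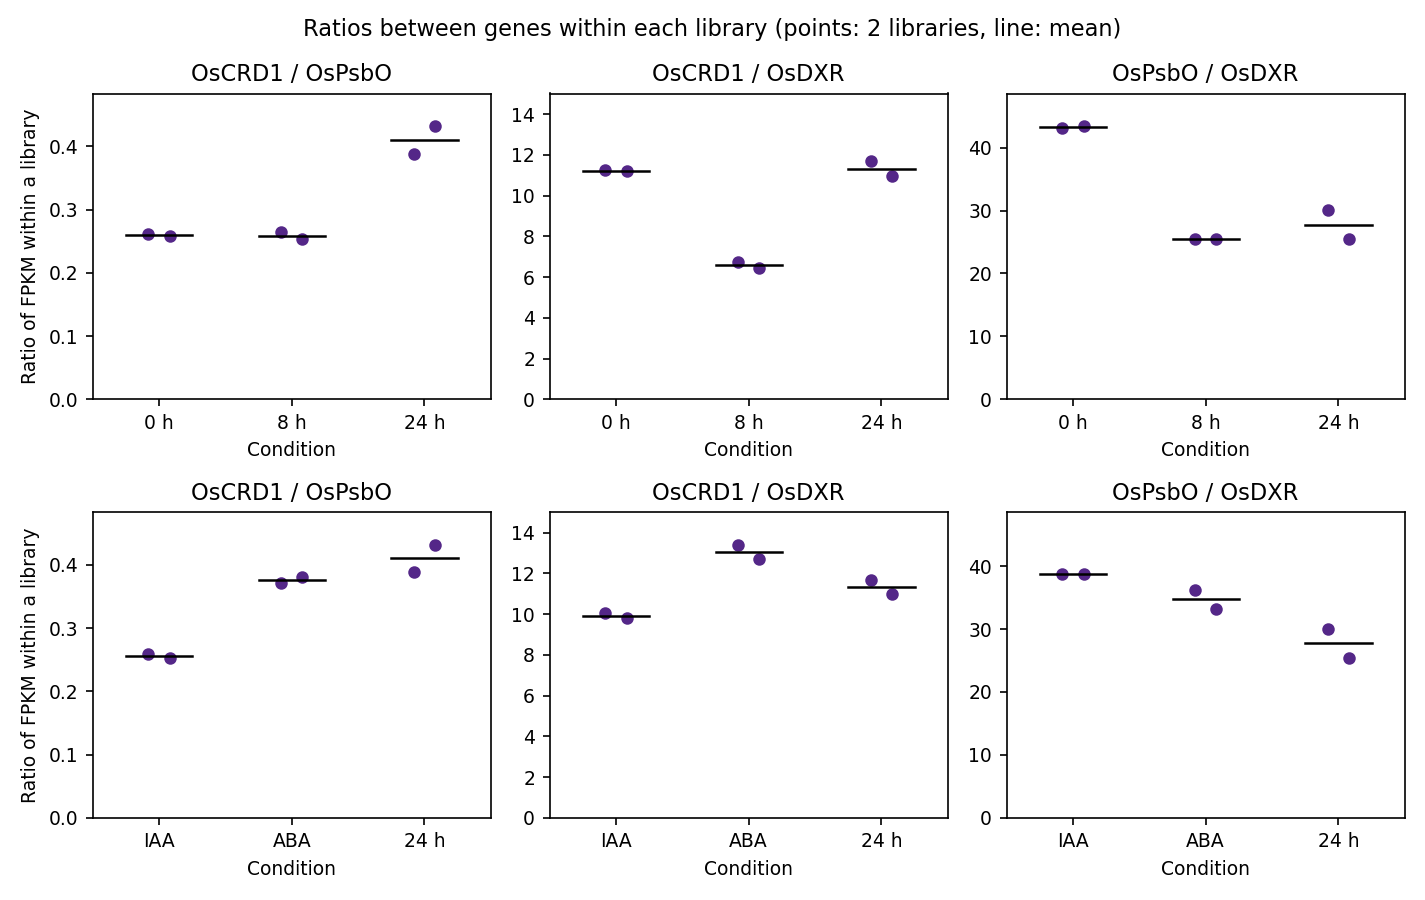
Ratio of FPKM between 2 genes within each library (vertical axis, linear from 0) by condition, with the 3 light stages in the upper row and IAA, ABA and 24 h in the lower row. Points are the 2 libraries and lines their mean. OsCRD1 per OsPsbO is 0.410 at 24 h and 0.256 with IAA, and OsCRD1 per OsDXR is lowest at 8 h (6.61).

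Among the transcription factors that the study names by locus ID in this stretch of the chromosome, GLK2 (LOC_Os01g13740), an activator of chloroplast genes, had a pattern most like that of OsCRD1. Over the 10 libraries the Pearson correlation of log2(FPKM + 1) was 0.97 (Spearman 0.87), the 13th highest of 1091 other genes, and 38 genes (3.48%) had a correlation of at least 0.9 with OsCRD1. The mean level of GLK2 was 20.6 FPKM at 0 h, 21.0 FPKM at 8 h and 34.4 FPKM at 24 h, and it was 28.1 FPKM with IAA and 30.9 FPKM with ABA, so that both genes had their larger light change after 8 h and were lower with IAA than at 24 h. With ABA the libraries of GLK2 lay below those of 24 h (log2 change -0.15, adjusted p = 0.122 from limma), whereas those of OsCRD1 overlapped with them. The correlation of GLK2 was 0.75 with OsPsbO, 0.70 with ELIP and 0.68 with OsDXR. OsbZIP1 (LOC_Os01g07880), a homolog of Arabidopsis HY5, had correlations of -0.24 with OsCRD1, 0.40 with OsPsbO, 0.30 with ELIP and -0.18 with OsDXR. Between the 4 genes themselves the highest correlation was that of OsPsbO with ELIP (0.92, Spearman 0.94), and the lowest that of OsPsbO with OsDXR (0.63). The 10 points of each correlation are pairs of replicates from 5 conditions and share the scaling of their libraries, so the values are descriptions.

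The genes with the highest Pearson correlation over the 10 libraries carry no names in the files. They were LOC_Os01g07700 (0.99) and LOC_Os01g24440 (0.98) for OsCRD1, and LOC_Os01g18800 and LOC_Os01g08440 (both 0.98) for OsPsbO. For ELIP they were LOC_Os01g19020 and LOC_Os01g10950 (both 0.96), and for OsDXR LOC_Os01g22980 and LOC_Os01g37130 (both 0.99). LOC_Os01g07700 had mean levels of 8.94 FPKM at 0 h, 10.1 FPKM at 8 h, 21.6 FPKM at 24 h, 18.2 FPKM with IAA and 22.5 FPKM with ABA, the same order of conditions as OsCRD1. LOC_Os01g22980 had lower levels than OsDXR, with 0.658 FPKM at 0 h, 19.0 at 8 h and 49.5 at 24 h. Relative to its level at 0 h, which was below 1 FPKM, its rise was larger than that of OsDXR. By Spearman correlation the closest 2 genes of each were others (0 of these 8 genes shared).

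**Figure D5:**
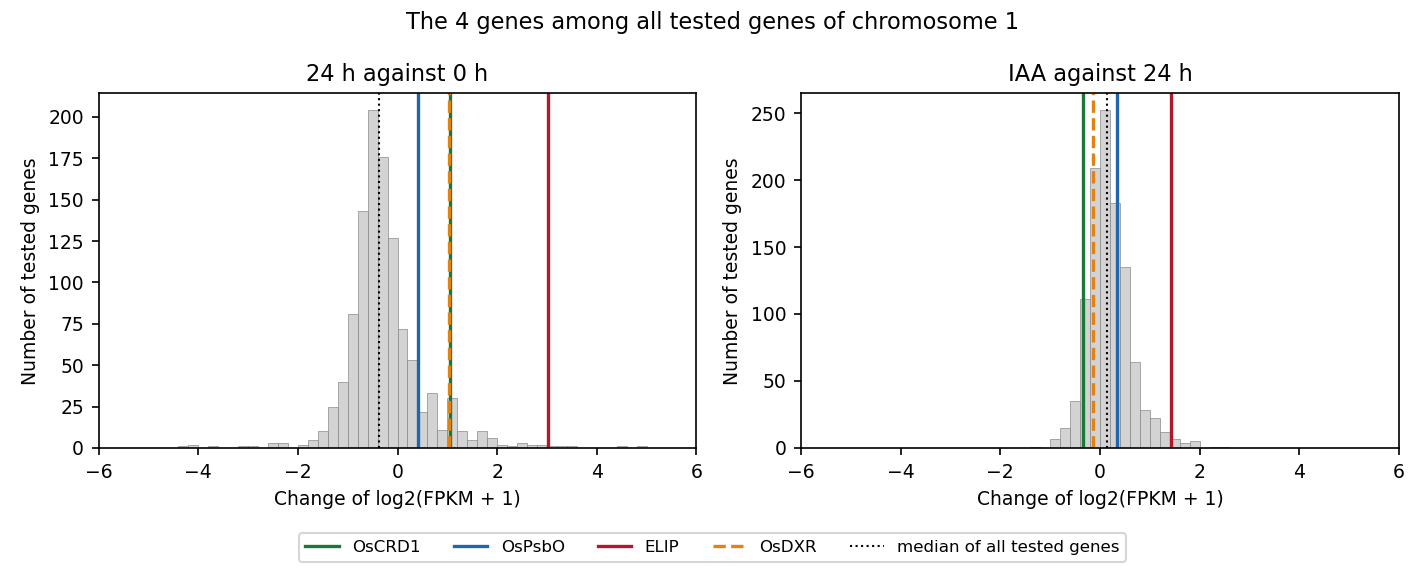
Number of tested genes (vertical axis) by change of log2(FPKM + 1) (horizontal axis, bins of 0.2) for 24 h against 0 h and for IAA against 24 h, with coloured lines at the 4 genes and a dotted line at the median of all 1092 genes. At 24 h all 4 lines lie right of the median (-0.38), OsCRD1 (1.06) and OsDXR (1.03) almost on each other. With IAA, OsCRD1 (-0.34) and OsDXR (-0.14) lie left of the median (0.13).

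The 4 genes lie far apart on chromosome 1 (MSU7.0 gene models, positions as in the table). OsDXR spans 374728 to 380716 on the minus strand, ELIP 8061858 to 8062908 on the plus strand, OsCRD1 9874326 to 9876951 on the plus strand and OsPsbO 17349311 to 17350816 on the plus strand. None of them overlaps another gene of the table (0 overlaps each). The nearest neighbour is LOC_Os01g01700, which ends 257 bp from OsDXR on the opposite strand. Its mean level was 60.9 FPKM at 0 h, 54.4 at 8 h and 39.2 at 24 h, the reverse of the order of OsDXR at these stages. The genes on either side of ELIP, LOC_Os01g14370 and LOC_Os01g14420, had mean levels of 9.91 and 2.98 FPKM at 24 h and 10.4 and 3.33 FPKM at 0 h, while ELIP went through its 27.8-fold difference. Reads shared with gene copies outside the stretch used here were not tested.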

How the data were processed

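According to the methods of the paper, the RNA-seq reads were trimmed with seqtk, mapped with Hisat2 and turned into FPKM with Cufflinks. The tools listed with the samples are HISAT2, SAMtools, featureCounts and DESeq2, so the step that gave the FPKM is not certain. The authors deposited 1 table of FPKM values, whose columns were matched to the samples by name. The unit is taken from the methods and the table's name, although the study plots values like those of OsbZIP1 on an axis labelled TPM. The YD6 reads were mapped to a Nipponbare-based annotation (MSU7.0), and the effect on single genes was not tested. The low values show no step for a single read (of the genes below 0.1 FPKM, no more than 10.1% had a common ratio between replicates within 2%), so the sequencing depth could not be recovered. The summed FPKM of the rows used here ran from 25049 to 30081, and 1 incomplete row of 2283 was left out.

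All 10 libraries were fitted together with limma (version 3.58.1 in R 4.3.3, lmFit and eBayes with trend) on log2(FPKM + 1), without further scaling, for all genes averaging 1 FPKM or more, and p-values were adjusted over all 1092 genes. FPKM are no counts, so no count test was used. On simulated data for 24 h against 0 h, 176 of 200 genes changed 3-fold among 1092 were called, and 0 unchanged genes. The simulated noise was independent between libraries, without the shift of the median seen between the measured conditions. The simulation therefore gives no estimate of false calls in the measured data. The genes and lists were chosen with earlier results of these data known. The text names the 4 genes, GLK2, OsbZIP1 and, for each of the 4, the 2 genes with the highest Pearson correlation. A list of further greening genes could not be made, since no annotation used here names these loci, and no sequences are shown. Other steps used Python 3.11.15 with numpy 2.4.6, pandas 2.3.3 and matplotlib 3.10.9.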

Additional observations from a re-analysis of the deposited data

How the results depend on the processing

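The settings tried were a pseudocount of 0.1, all genes kept regardless of level, genes averaging 5 FPKM or more, rescaling by the median of ratios, a fit of only the conditions compared, the replicate number as a block, a looser limit of 0.05 on the adjusted p, and leaving out single libraries, with a lone replicate taken to vary like the others. For the 4 genes, rescaling took OsDXR to 1.03 at 8 h against 0 h and, at 24 h against 8 h, OsCRD1 to 1.19 and ELIP to 1.13, all then called. A pseudocount of 0.1 took ELIP to 1.07 in that last comparison. Rescaled, the signs of OsPsbO (-0.093) and OsDXR (-0.25) turned for IAA against ABA, which puts the typical gene at no change by construction. With single libraries left out, the change at 24 h against 8 h ran from 0.94 to 1.02 for OsCRD1 and from 0.80 to 1.10 for ELIP, that of OsDXR at 24 h against 0 h from 0.98 to 1.08, that of ELIP for ABA against 24 h from -0.13 to 0.16, that of OsDXR for IAA against ABA from -0.018 to 0.10, and the later minus earlier change of OsPsbO from 0.16 to 0.30.

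Over all tested genes, rescaling gave 26 genes lower at 8 h against 0 h, 23 at 24 h against 8 h, 32 at 24 h against 0 h and 6 with IAA, and 27 higher and 17 lower for IAA against ABA. A pseudocount of 0.1 gave 66 lower at 8 h against 0 h, 10 with ABA and 3 with IAA, and 80 higher for IAA against ABA. Genes averaging 5 FPKM or more gave 2 lower with ABA and 32 higher for IAA against ABA. Taken with its sign, the later change was larger than the earlier one in 96 genes and smaller in 110 with all genes kept. At the looser limit it was larger in 247 genes. Leaving out single libraries, the genes called ran from 15 to 28 higher with ABA, from 1 to 2 lower with IAA, and from 86 to 181 and 107 to 214 with a larger and a smaller later change. Replicates of the same number showed no shared shift, with correlations of replicate differences between conditions from -0.07 to 0.11. Whether they were grown or handled together is not stated. Under the replicate block all 28 values of the 4 genes kept their direction and call, OsCRD1 at 24 h against 0 h at 1.06 for example. The depth is unknown, so the counting error of ELIP in the dark is too.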
